A study of Homo sapiens with 36 samples.

Results

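The receptors and ligands of the epidermal growth factor family were followed as 9 genes of the 58735 in the count table, chosen by gene name: the receptors EGFR, ERBB2 and ERBB3 and the ligands EREG, AREG, EPGN, BTC, HBEGF and TGFA. RNA-seq counts came from 36 libraries of Cal27, HN6 and HN4, 3 established human cell lines from squamous carcinoma of the head and neck, in 12 groups of 3 libraries. In the IL-8 experiment, which asked about the effect of the chemokine IL-8 where its receptor CXCR1 varies between lines, each line received recombinant human IL-8 at 100 ng per ml for 24 h, with its untreated cells as the control. In the plasmid experiment, which asked what lies downstream of ACLY (ATP-citrate lyase, a source of acetyl-CoA in the cytosol), each line received a plasmid carrying ACLY, with cells given the vector as the control. All groups grew in medium with serum depleted of exosomes. Each line is a single line of its own origin, so that a difference between lines belongs to those lines alone. The labels do not say whether the 3 libraries of a group came from separate cultures, and p-values cover the spread among these libraries only, part or all of which may be technical.

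The ligands are made as membrane-bound precursors, and ADAM proteases such as ADAM17 and ADAM10 release them at the cell surface. TGFA, AREG and EPGN bind EGFR, whereas HBEGF, BTC and EREG bind EGFR and the related receptor ERBB4. ERBB2 has no known ligand and serves as a preferred dimer partner, and ERBB3 binds neuregulins, has a weak kinase and recruits PI3-kinase. EGFR is abundant in many head and neck squamous carcinomas and is the target of the antibody cetuximab used in this disease.

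The ligand genes EPGN, EREG, AREG and BTC stand side by side on chromosome 4. The promoters of EREG, AREG and EPGN are shown with those of EGFR and HBEGF, since the results turn on EGFR, EREG and HBEGF, and AREG and EPGN are the neighbours of EREG. In gene order EPGN, EREG, AREG and BTC spanned 486.2 kb, with gaps of 49.84, 56.38 and 289.8 kb and 0 protein-coding genes between neighbours. Each line gives the 250 bases before the annotated start, 5′ to 3′ on the strand of the gene, from RefSeq on build GRCh38.p14. Capitals mark matches on either strand to TGANTCA for AP-1, to TGACGTCA for CRE, to GGAATG for TEAD, to GGGCGG for the GC box and to TATAAA for TATA.
EREG (chr4:74364895-74365144, plus strand): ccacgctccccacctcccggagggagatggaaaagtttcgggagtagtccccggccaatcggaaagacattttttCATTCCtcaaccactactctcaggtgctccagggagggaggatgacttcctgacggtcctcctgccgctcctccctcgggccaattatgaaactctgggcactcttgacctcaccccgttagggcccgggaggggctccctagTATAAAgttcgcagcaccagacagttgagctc
AREG (chr4:74444886-74445135, plus strand): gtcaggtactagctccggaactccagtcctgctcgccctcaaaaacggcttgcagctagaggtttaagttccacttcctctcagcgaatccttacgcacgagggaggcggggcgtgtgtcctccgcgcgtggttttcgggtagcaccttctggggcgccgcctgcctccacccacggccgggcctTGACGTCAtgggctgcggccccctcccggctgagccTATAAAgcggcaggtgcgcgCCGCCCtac
EPGN (chr4:74308220-74308469, plus strand): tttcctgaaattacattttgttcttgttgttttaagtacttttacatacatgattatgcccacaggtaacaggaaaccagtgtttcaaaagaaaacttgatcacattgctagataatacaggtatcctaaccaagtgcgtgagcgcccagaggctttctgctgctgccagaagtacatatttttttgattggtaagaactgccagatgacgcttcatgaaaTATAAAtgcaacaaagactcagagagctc
EGFR (chr7:55018767-55019016, plus strand): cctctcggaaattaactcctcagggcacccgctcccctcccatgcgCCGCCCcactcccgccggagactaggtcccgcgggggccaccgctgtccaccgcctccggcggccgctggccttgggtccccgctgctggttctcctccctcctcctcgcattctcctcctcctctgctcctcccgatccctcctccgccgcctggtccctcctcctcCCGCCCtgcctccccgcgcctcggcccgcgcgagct
HBEGF (chr5:140346604-140346853, minus strand): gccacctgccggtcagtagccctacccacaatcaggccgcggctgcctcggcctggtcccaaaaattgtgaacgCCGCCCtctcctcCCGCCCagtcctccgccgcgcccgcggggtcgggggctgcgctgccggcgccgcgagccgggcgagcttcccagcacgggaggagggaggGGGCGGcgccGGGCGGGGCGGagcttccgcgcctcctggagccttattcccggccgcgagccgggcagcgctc

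EREG, AREG and EPGN each held TATAAA close before the start, from -32 to -27 in EREG and from -29 to -24 in AREG and EPGN. That motif stood in 10.7% of 35116 RefSeq promoter windows of the same length. AREG also held a complete CRE from -65 to -58, a motif found in 1.65% of windows, and EREG held CATTCC, the TEAD motif on the other strand, from -175 to -170, a motif found in 11.9%. EGFR held 2 GC boxes and HBEGF held 5, of which the last 2 share a base, and GC boxes stood in 42.6% of windows. EPGN had 38% G and C, against 73.6% in EGFR, 76.4% in HBEGF and a median of 58% over all windows. Of the members not printed, TGFA had 3 GC boxes at its first listed start, ERBB2 had 1 AP-1 match (a motif of 6.57% of windows) and BTC had none of the 5 motifs. EGFR and TGFA have another listed start each, with 2 AP-1, 1 TEAD and 2 TATA matches at that of EGFR and none at that of TGFA, and 8 of the 9 genes had an entry, all but ERBB3. A match describes the letters alone.

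Some libraries stood apart from their labels. ACLY was lower in HN4 libraries labelled ACLY, at 361, 370 and 314 CPM (TMM-scaled counts per 1000000 counts), against 1513, 1514 and 1496 CPM in those labelled vector. With the ACLY plasmid, ACLY reached 1901 ± 40.2 CPM in Cal27, against 230.1 ± 12.1 with vector, and 2210 ± 65.3 CPM in HN6, against 267.9 ± 4.98 with vector (SD, n = 3 each). With IL-8, ACLY was at 1170 ± 110.3 CPM in Cal27, against 232.9 ± 4.98 untreated, at 224.3 ± 3.15 in HN6, against 280.3 ± 4.18 untreated, and at 1351 ± 18.1 in HN4, against 374 ± 5.19 untreated. All 6 treated Cal27 libraries held transcripts that Cal27 controls lacked. The 11 genes with at least 20 CPM in untreated HN4 and at most 0.3 CPM in the other untreated lines had a median ratio to untreated HN4 of 0.309 ± 0.0207 in Cal27 given IL-8 and 0.556 ± 0.00758 in Cal27 given ACLY, against 0 in untreated and vector Cal27. The 13 genes found likewise in Cal27 alone stood at 0.628 ± 0.077 of their untreated Cal27 level in Cal27 given IL-8 and at 0.262 ± 0.0169 in Cal27 given ACLY. Treatment and these HN4 transcripts cannot be told apart in Cal27. In HN6 groups the HN4-only ratio averaged at most 0.000654. Cal27 IL-8 replicate 3 had 1.06% of counts from mitochondrial genes, against 3.37% and 3.59% in its partners, and HN4 labelled ACLY replicate 3 had 2.15%, against 5.71% and 6.04%. KRT14, a defining keratin of squamous epithelium, averaged 1016 ± 83.1 CPM in untreated Cal27, 0.688 ± 0.194 in HN6 and 0 in HN4. The 7 genes read as squamous markers were KRT5, KRT14, KRT6A, TP63, DSG3, CDH1 and EPCAM, of which CDH1 and EPCAM are shared with other epithelia. Of these 7, 7 reached 1 CPM in untreated Cal27 and 6 in HN6 and in HN4. Their sums were 5943 to 6486 CPM in untreated Cal27, 1947 to 1966 in HN6 and 978.9 to 1011 in HN4. In the 3 untreated lines, 2 to 3 of 7 fibroblast, 1 to 2 of 4 endothelial and 1 of 5 leukocyte markers reached 1 CPM. All 9 members passed the filter on low counts in every fit, library totals ran from 16570601 to 20232735 counts, and 3 counts correspond to 0.148 to 0.181 CPM. In bulk RNA, fewer cells carrying a transcript and less of it per cell cannot be told apart.

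The lines differed widely in EGFR and in EREG, and in opposite directions between HN6 and HN4. EGFR (chromosome 7, 55019021 to 55211628, plus strand) had 1718, 1900 and 1867 CPM in untreated Cal27, 9424, 9944 and 9257 in HN6 and 1096, 1086 and 1074 in HN4. No library of a line overlapped another line. In untreated HN6 it took 0.881% to 0.940% of all counts and held rank 2 among all genes in each library, whereas its ranks were 28 to 35 in Cal27 and 67 in HN4. EGFR in HN6 was 8.72-fold HN4 (log2 difference 3.12, SE 0.23, edgeR adjusted p = 1.63e-09), and in Cal27 it was 1.71-fold HN4 (0.77, SE 0.22, edgeR adjusted p = 0.00479). Cal27 was 5.11-fold below HN6 (-2.35, SE 0.23, edgeR adjusted p = 4.63e-08), and vector cells gave 5.01-fold (-2.32, SE 0.05, edgeR adjusted p = 3.47e-29).

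Over the 12 groups, EGFR was highest in the 4 HN6 groups. HN6 untreated and HN6 vector cells overlapped at 9542 ± 358.2 and 9453 ± 439.3 CPM, and HN6 with IL-8 and HN6 with ACLY overlapped at 8109 ± 148.8 and 7918 ± 105.7 CPM (SD, n = 3). Cal27 vector and Cal27 untreated cells overlapped at 1876 ± 24.5 and 1828 ± 97 CPM. The next 4 groups overlapped neighbour by neighbour, HN4 labelled ACLY at 1091 ± 97.7, HN4 untreated at 1085 ± 11, Cal27 with IL-8 at 1068 ± 491.5 and Cal27 with ACLY at 945.1 ± 16.4 CPM. HN4 with IL-8 at 871.9 ± 20.3 and HN4 labelled vector at 774.6 ± 25.6 CPM came last, each apart from its neighbour. The antisense gene EGFR-AS1 overlaps EGFR and had 5096 counts over all 36 libraries, against 59240 EGFR counts in untreated HN4 alone. The strand setting of the counting was not given in the sources used here.

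**Figure D1:**
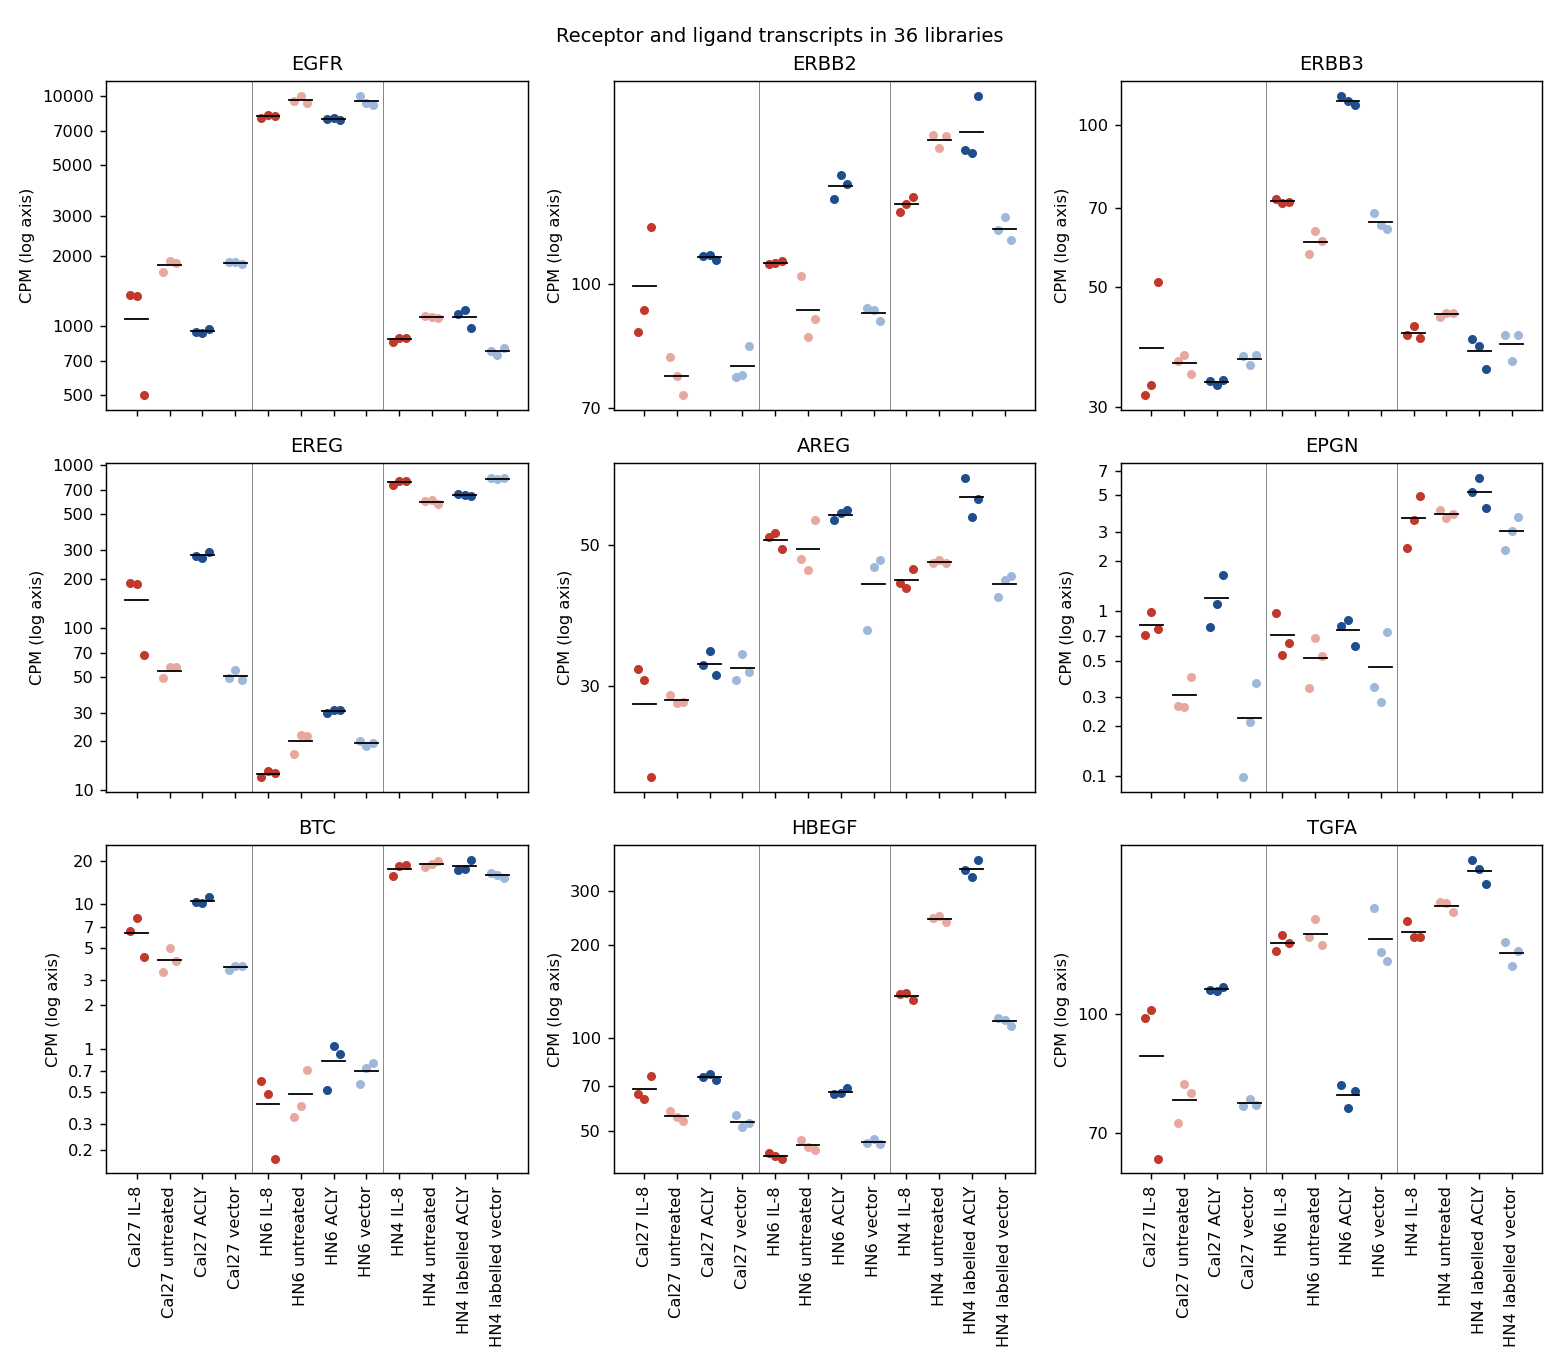
CPM on log axes for each of the 9 genes in the 36 libraries (points) of the 12 groups on the horizontal axis, with the mean of 3 libraries as a line and Cal27, HN6 and HN4 from left to right. EGFR was highest in the 4 HN6 groups and EREG, BTC, HBEGF and EPGN were highest in the 4 HN4 groups, and Cal27 IL-8 replicate 3 lay apart from its partners in EGFR, EREG and ERBB3.

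The genes beside EGFR did not share its difference evenly. SEC61G, a subunit of the protein translocation channel whose gene starts at -266.8 kb from the EGFR start, averaged 285.5 CPM in untreated Cal27, 797.3 in HN6 and 205.7 in HN4, which is 3.88 times as much in HN6 as in HN4. LANCL2, 346.4 kb after the EGFR start, had 45.05 CPM in HN6, against 30.96 in HN4, a ratio of 1.46. VOPP1, 417 kb after it, was lower in HN6, at 0.649 times HN4. FKBP9P1 was read mainly in Cal27, with 16.7 CPM against 1.46 in HN6, and VSTM2A and SEPTIN14 had at most 0.0505 CPM in any untreated line. Of 5 neighbours tested in untreated HN6 against HN4, 3 were higher and 1 lower by edgeR (32.4% and 34.7% of all genes).

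**Figure D2:**
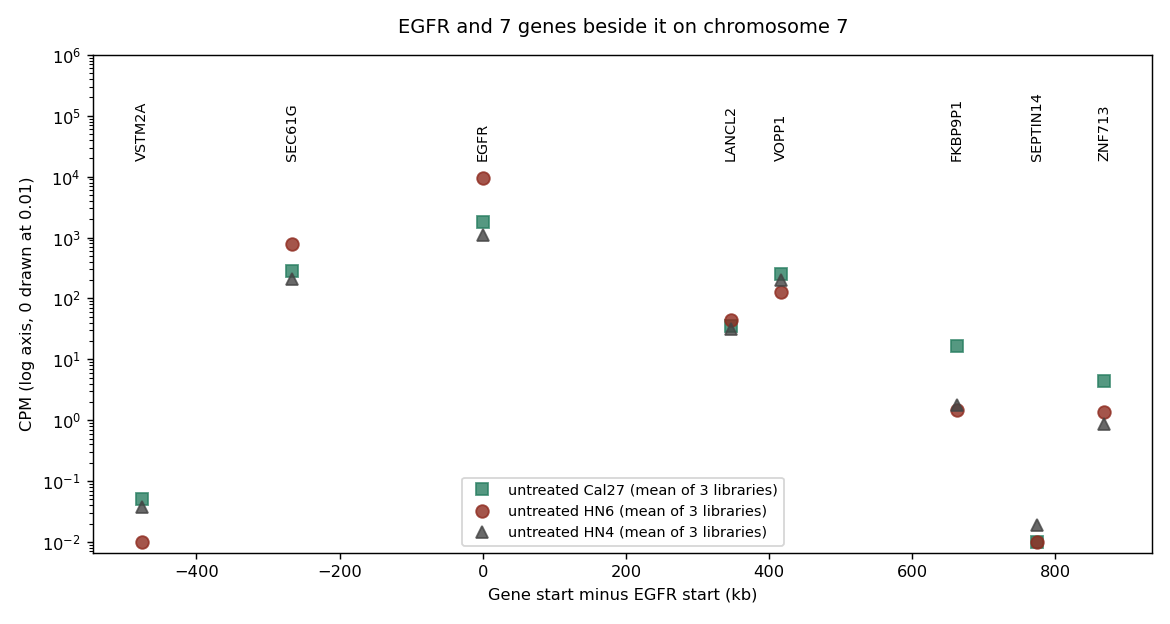
Mean CPM of 3 untreated libraries per line (log vertical axis) for EGFR and 7 genes beside it, by the distance of their starts from the EGFR start in kb on the horizontal axis. EGFR and SEC61G stood higher in HN6 (circles) than in Cal27 (squares) and HN4 (triangles), and VOPP1 stood lower in HN6.

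The other receptors varied less. ERBB2 (chromosome 17, 39687914 to 39730426, plus strand) had 80.9, 76.8 and 72.7 CPM in untreated Cal27, 102.3, 85.9 and 90.5 in HN6 and 153.6, 148.2 and 153.1 in HN4, where it was highest. Cal27 was 1.95-fold below HN4 (log2 difference -0.96, SE 0.10, edgeR adjusted p = 1.22e-07) and HN6 1.65-fold below HN4 (-0.72, SE 0.10, edgeR adjusted p = 4.42e-06). MIEN1 and PGAP3 share bases with ERBB2 on the other strand. Of 9 tested neighbours of ERBB2, 2 were higher and 4 lower in Cal27 than in HN4 (32.2% and 31.4% of all genes), and 5 were higher and 1 lower in HN6 than in HN4 (32.4% and 34.7%). ERBB2 in Cal27 against HN6 was called at -0.24 (SE 0.10, edgeR adjusted p = 0.036). It was no longer called without HN6 untreated replicate 1 (-0.18) or 3 (-0.27) or without Cal27 untreated replicate 2 (-0.25) or 3 (-0.21), nor with library-size scaling (-0.13), upper-quartile scaling (-0.13) or a minimum mean of 5 CPM (-0.17).

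ERBB3 (chromosome 12, 56076799 to 56103505, plus strand) had 36.5, 37.5 and 34.5 CPM in untreated Cal27, 57.55, 63.6 and 61.01 in HN6 and 44.05, 44.8 and 44.8 in HN4, with no overlap between lines. Cal27 was below HN6 (log2 difference -0.72, SE 0.13, edgeR adjusted p = 0.000101) and HN6 above HN4 (0.44, SE 0.13, edgeR adjusted p = 0.00691). Cal27 against HN4 gave -0.28 (SE 0.13, edgeR adjusted p = 0.0697), which was called at -0.29 without Cal27 IL-8 replicate 3 (edgeR adjusted p = 6.29e-05).

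Among the ligands EREG, HBEGF, BTC and EPGN stood highest in HN4. EREG (epiregulin, chromosome 4, 74365143 to 74388751, plus strand) had 48.7, 57.05 and 57.2 CPM in untreated Cal27 and 16.7, 21.8 and 21.6 in HN6, against 596.3, 609.3 and 576.4 in HN4. It was 10.8-fold lower in Cal27 than in HN4 (log2 difference -3.43, SE 0.25, edgeR adjusted p = 1.25e-09), 29.9-fold lower in HN6 than in HN4 (-4.90, SE 0.27, edgeR adjusted p = 2.69e-11) and 2.77-fold higher in Cal27 than in HN6 (1.47, SE 0.25, edgeR adjusted p = 4.04e-05). BTC (betacellulin, chromosome 4, 74744759 to 74794686, minus strand) followed the same order, with 3.4, 4.94 and 4.06 CPM in Cal27 and 0.3395, 0.399 and 0.709 in HN6, against 18, 18.9 and 19.9 in HN4. HN6 held 25 BTC counts over its 3 untreated libraries. BTC was 4.52-fold lower in Cal27 than in HN4 (-2.18, SE 0.20, edgeR adjusted p = 2e-08) and 39.2-fold lower in HN6 than in HN4 (-5.29, SE 0.27, edgeR adjusted p = 9.56e-12).

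HBEGF (heparin-binding EGF-like growth factor, chromosome 5, 140332843 to 140346631, minus strand) had 58.3, 55.9 and 53.9 CPM in untreated Cal27 and 46.9, 44.6 and 43.6 in HN6, against 245.3, 249.9 and 237.8 in HN4. It was 4.31-fold lower in Cal27 (-2.11, SE 0.08, edgeR adjusted p = 9.27e-14) and 5.47-fold lower in HN6 (-2.45, SE 0.08, edgeR adjusted p = 2.04e-14) than in HN4. EPGN (epigen, chromosome 4, 74308473 to 74315307, plus strand) was scarce, with 18 counts over 3 untreated libraries in Cal27 and 27 in HN6, against 211 in HN4. It averaged 0.308 ± 0.0763 CPM in Cal27 and 0.519 ± 0.173 in HN6, against 3.86 ± 0.21 in HN4 (SD, n = 3 each). Both lines were below HN4, by a log2 difference of -3.59 in Cal27 (edgeR adjusted p = 2.12e-08) and -2.89 in HN6 (edgeR adjusted p = 1.45e-07).

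AREG and TGFA stood nearly level in HN6 and HN4 and lower in Cal27. AREG (amphiregulin, chromosome 4, 74445134 to 74455009, plus strand) had 29.01, 28.2 and 28.3 CPM in untreated Cal27, 47.5, 45.7 and 54.8 in HN6 and 46.9, 47.4 and 46.9 in HN4. HN6 and HN4 overlapped (log2 difference 0.06, SE 0.11, edgeR adjusted p = 0.652), although the neighbouring EREG, 56.38 kb away, differed 29.9-fold between them. Cal27 was 1.63-fold below HN4 (-0.70, SE 0.11, edgeR adjusted p = 1.59e-05) and 1.70-fold below HN6 (-0.76, SE 0.11, edgeR adjusted p = 5.79e-06). TGFA (transforming growth factor alpha, chromosome 2, 70447280 to 70554193, minus strand) averaged 77.5 ± 4.76 CPM in Cal27, 127.3 ± 4.99 in HN6 and 138.5 ± 2.18 in HN4 (SD, n = 3 each). Cal27 was 1.77-fold below HN4 (-0.82, SE 0.11, edgeR adjusted p = 3.58e-06). HN6 against HN4 gave -0.13 (SE 0.11, edgeR adjusted p = 0.293), which was called at -0.13 without Cal27 IL-8 replicate 3 (edgeR adjusted p = 0.0127).

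Between lines most genes tested differed, which is the background of the members' counts. By edgeR 8 of 9 members differed in untreated Cal27 against HN4 (1 higher, 7 lower), where 63.6% of all genes tested were called (32.2% higher, 31.4% lower). In untreated HN6 against HN4, 7 of 9 did (2 higher, 5 lower), with 67.2% of all genes called (32.4% higher, 34.7% lower). In Cal27 against HN6 it was 8 of 9 (3 higher, 5 lower) in untreated cells, with 68.4% called (35.3% higher, 33.1% lower), and 8 of 9 (3 higher, 5 lower) in vector cells, with 73.3% called (36.7% higher, 36.6% lower). Groups did not overlap in 9 members in untreated Cal27 against HN4, in 8 in HN6 against HN4, in 8 in Cal27 against HN6 and in 8 in vector Cal27 against HN6, beside 73.3%, 75.5%, 75.6% and 75.4% of all genes in the same 4 comparisons. Without Cal27 IL-8 replicate 3, which lends its spread to the untreated comparisons, 9, 8 and 8 members were called in Cal27 against HN4, HN6 against HN4 and Cal27 against HN6, beside 71.9%, 73.8% and 75.3% of all genes.

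Per transcript length, the lines carried different ligand mixtures. TPM, counts per base of the deposited gene length scaled to a sum of 1000000, allows levels of different genes to be set side by side. The 6 ligands summed to 226.6 ± 6.73 TPM in untreated Cal27 and 256.6 ± 5.8 in HN6, against 833.7 ± 18.8 in HN4 (SD, n = 3 each). The largest share was HBEGF in Cal27 at 29.7% ± 1.6, AREG in HN6 at 40.15% ± 2.86 and EREG in HN4 at 41.5% ± 0.301. In vector cells it was AREG in Cal27 at 30.85% ± 1.03, AREG in HN6 at 37.2% ± 4.31 and EREG in HN4 labelled vector at 60.2% ± 0.22, so that the leading ligand differed between both Cal27 controls. Some leads were narrow. Untreated Cal27 had HBEGF at 67.2 ± 2.31, AREG at 62.6 ± 0.46 and TGFA at 56.5 ± 3.99 TPM. HN6 with vector had AREG at 92.9 ± 12.9 and TGFA at 88.9 ± 7.25 TPM, and in its replicate 1 TGFA (97.3) exceeded AREG (78.2). The 3 receptors summed to 569.9 ± 32.2 TPM in Cal27, of which EGFR was 92.7% ± 0.614. They summed to 2680 ± 127.5 TPM in HN6, of which EGFR was 98% ± 0.114, and to 354.3 ± 10.2 TPM in HN4, of which EGFR was 81.5% ± 0.276. HN6 held the most receptor transcript of the 3 lines and HN4 the least, while HN4 held the most ligand transcript.

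**Figure D3:**
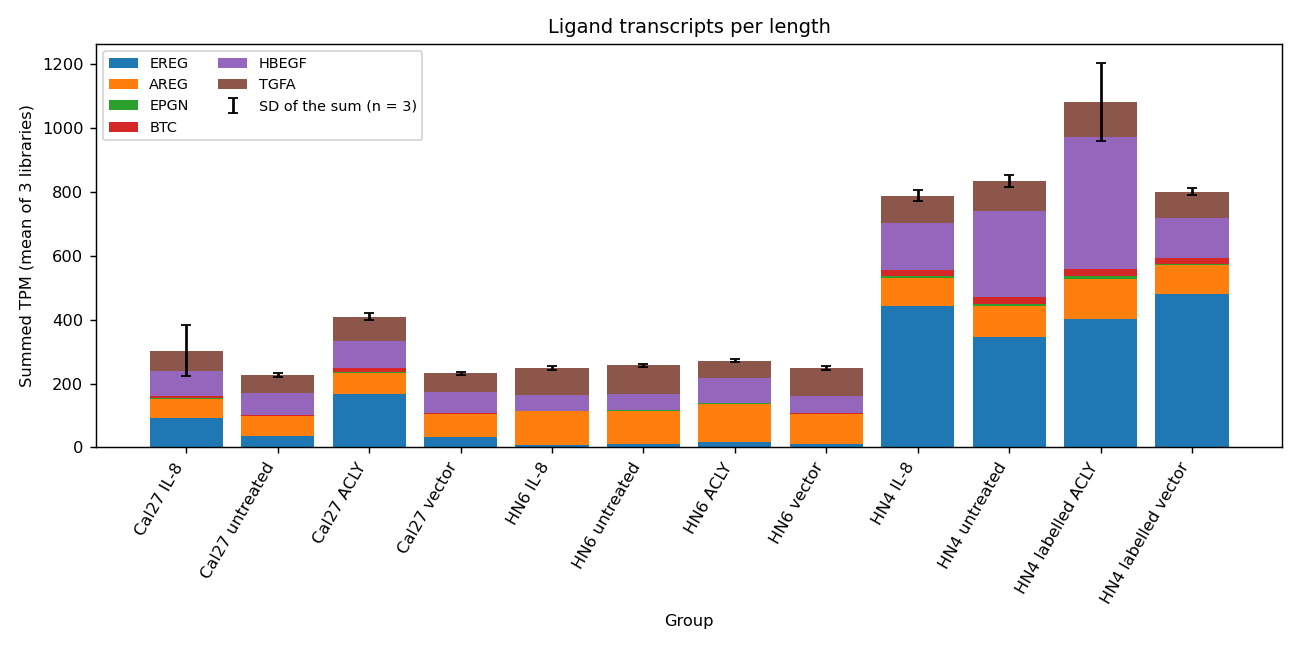
Summed TPM of the 6 ligands in each of the 12 groups, as stacked means of 3 libraries with the SD of the sum as error bars. Means of HN6 groups stayed between 248.1 and 271.7 TPM, with AREG the largest mean share, and those of HN4 groups reached 786.6 to 1079 TPM, mostly EREG and HBEGF.

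NRG1, a neuregulin that binds ERBB3 and ERBB4, ran in yet another order, with 200.7 ± 7.4 CPM in untreated Cal27, 36.5 ± 1.29 in HN6 and 3.82 ± 0.27 in HN4 (SD, n = 3 each). It was higher in Cal27 than in HN4 (log2 difference 5.73) and in HN6 than in HN4 (3.24), both called by edgeR. ERBB4 had at most 14 counts over the 3 libraries of any group. EGF itself reached at most 1.89 ± 0.103 CPM, in HN4 labelled vector, and had 0.548 ± 0.373 CPM in HN4 labelled ACLY, a lower level (-1.77, edgeR adjusted p = 0.000342).

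In HN6, where ACLY followed the label, the ACLY plasmid went with 7 of the 9 members called, 5 higher and 2 lower, in a comparison where 51.6% of all genes tested were called by edgeR (26.8% higher, 24.9% lower). Groups without overlap made up 7 members, beside 58.2% of all genes. All 7 changes were below 2-fold, and the median log2 difference of the members was 0.53, against 0.04 for all genes. ERBB3 rose to 113.2, 110.7 and 109 CPM with ACLY, against 68.6, 65.1 and 64.1 with vector, 1.69-fold (log2 difference 0.75, SE 0.06, edgeR adjusted p = 1.1e-12). EREG rose to 29.7, 30.98 and 31.3 CPM with ACLY, against 20.3, 18.8 and 19.4 with vector, 1.58-fold (0.66, SE 0.06, edgeR adjusted p = 4.73e-11). TGFA fell to 80.9, 75.6 and 79.4 CPM with ACLY, against 137.6, 120.7 and 117.4 with vector, 1.59-fold lower (-0.67, SE 0.06, edgeR adjusted p = 3.5e-12). In all 3 genes the ACLY libraries lay outside the range of the vector libraries.

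HBEGF averaged 67.2 ± 1.58 CPM in HN6 with ACLY and 46.2 ± 0.926 with vector (SD, n = 3 each), a 1.46-fold rise (edgeR adjusted p = 7.06e-10). ERBB2 averaged 132.7 ± 4.71 CPM with ACLY and 92 ± 1.8 with vector, a 1.45-fold rise (edgeR adjusted p = 1.75e-09). AREG averaged 55.9 ± 1.03 CPM with ACLY and 43.4 ± 5.83 with vector, a 1.29-fold rise (edgeR adjusted p = 0.0001475). Their ACLY and vector libraries did not overlap. EGFR fell to 7935, 8014 and 7805 CPM with ACLY, against 9955, 9267 and 9137 with vector, 0.839-fold (-0.25, SE 0.05, edgeR adjusted p = 4.42e-05), and with all 36 libraries in 1 fit this call was lost (-0.26, edgeR adjusted p = 0.261). BTC at 46 counts over 3 libraries with ACLY and 37 with vector did not pass. EPGN at 42 counts with ACLY and 24 with vector did not pass either (0.74, SE 0.43, edgeR adjusted p = 0.1585), and was called at 1.27 without HN6 vector replicate 3 (edgeR adjusted p = 0.0423). The 11 genes found in HN6 alone by the same limits had a median ratio to untreated HN6 of 0.785 ± 0.0266 with ACLY and 0.971 ± 0.0374 with vector (SD, n = 3 each). The 7 fibroblast markers summed to 52.6 to 60.6 CPM in HN6 with ACLY, with PDGFRA and DCN at 0, against 18.5 to 22.1 with vector, with COL1A2, COL3A1, PDGFRA and DCN at 0. The 4 endothelial markers summed to 19.5 to 22.03 CPM with ACLY, against 10.03 to 12.4 with vector, the 5 leukocyte markers to 6.26 to 7.07, against 3.385 to 4.39 with vector, and the 7 squamous markers to 2127 to 2151, against 1907 to 1954 with vector. The part of these genes and markers in the members' values was not tested.

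In Cal27 the ACLY plasmid went with 8 of 9 members called, 6 higher and 2 lower, where 63.2% of all genes tested were called by edgeR (34.2% higher, 29% lower). The ACLY and vector groups were apart in 8 members, beside 69.8% of all genes. The median of the members was 0.47, against 0.03 for all genes. EREG rose to 274.3, 268.6 and 290.9 CPM with ACLY, against 49.2, 54.75 and 47.5 with vector, 5.46-fold (log2 difference 2.45, SE 0.05, edgeR adjusted p = 6.62e-29). BTC rose to 10.3, 10.2 and 11.3 CPM with ACLY, against 3.53, 3.76 and 3.74 with vector, 2.85-fold (1.51, SE 0.14, edgeR adjusted p = 2e-11). EGFR fell to 938.5, 933.1 and 963.7 CPM with ACLY, against 1892, 1887 and 1847 with vector, 2.003-fold lower (SE 0.05 on the log2 scale, edgeR adjusted p = 1.32e-18). The groups of these 3 genes lay apart by more than the range within either group.

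EPGN rose as well, with 15, 22 and 29 counts in Cal27 with ACLY, against 2, 4 and 7 with vector (2.35, SE 0.45, edgeR adjusted p = 2.98e-05). TGFA rose to 107.8 ± 0.669 CPM with ACLY, against 76.6 ± 0.842 with vector (0.48, edgeR adjusted p = 5.06e-09). ERBB2 rose to 108 ± 0.71 CPM with ACLY, against 78.97 ± 4 with vector (0.44, edgeR adjusted p = 7.33e-08), and HBEGF to 74.96 ± 1.51, against 53.7 ± 2.41 with vector (0.47, edgeR adjusted p = 7.42e-09; SD, n = 3 each). ERBB3 was called lower at 33.3 ± 0.351 CPM with ACLY, against 36.8 ± 0.817 with vector (-0.16, edgeR adjusted p = 0.0363). That call was lost without Cal27 vector replicate 1 (-0.15) or 3 (-0.15), without Cal27 ACLY replicate 1 (-0.16), 2 (-0.14) or 3 (-0.16), with no filter (-0.15) and with all 36 libraries in 1 fit (-0.15). AREG averaged 32.5 ± 1.43 CPM with ACLY and 32 ± 1.53 with vector, with a log2 difference of 0.01 (SE 0.08, edgeR adjusted p = 0.908).

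These Cal27 values stand beside the HN4 transcripts found in the same libraries. On a scale where vector Cal27 is 0 and untreated HN4 is 1, the ACLY replicates 1, 2 and 3 of Cal27 had EREG at 0.412, 0.401 and 0.442, BTC at 0.436, 0.425 and 0.499, TGFA at 0.503, 0.493 and 0.515, and ERBB2 at 0.404, 0.407 and 0.389. The 11 HN4-only genes had a median ratio of 0.556 ± 0.00758 (SD, n = 3) in these libraries. HBEGF lay lower, at 0.111, 0.12 and 0.104, and EPGN at 0.159, 0.243 and 0.393, while EGFR at 1.19, 1.19 and 1.15 lay beyond untreated HN4. AREG lay near vector Cal27, at 0.0247, 0.136 and -0.0527. Set against the HN4 libraries labelled vector, EGFR had a mean of 0.845, EREG 0.294 and HBEGF 0.355. ERBB3 lay outside the range between vector Cal27 and each of the 3 HN4 groups it was set against. The 7 squamous markers summed to between 3322 and 3484 CPM in Cal27 with ACLY, against 5939 to 6552 with vector. The part of HN4 transcripts and of squamous markers in the changes of these members was not tested.

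**Figure D4:**
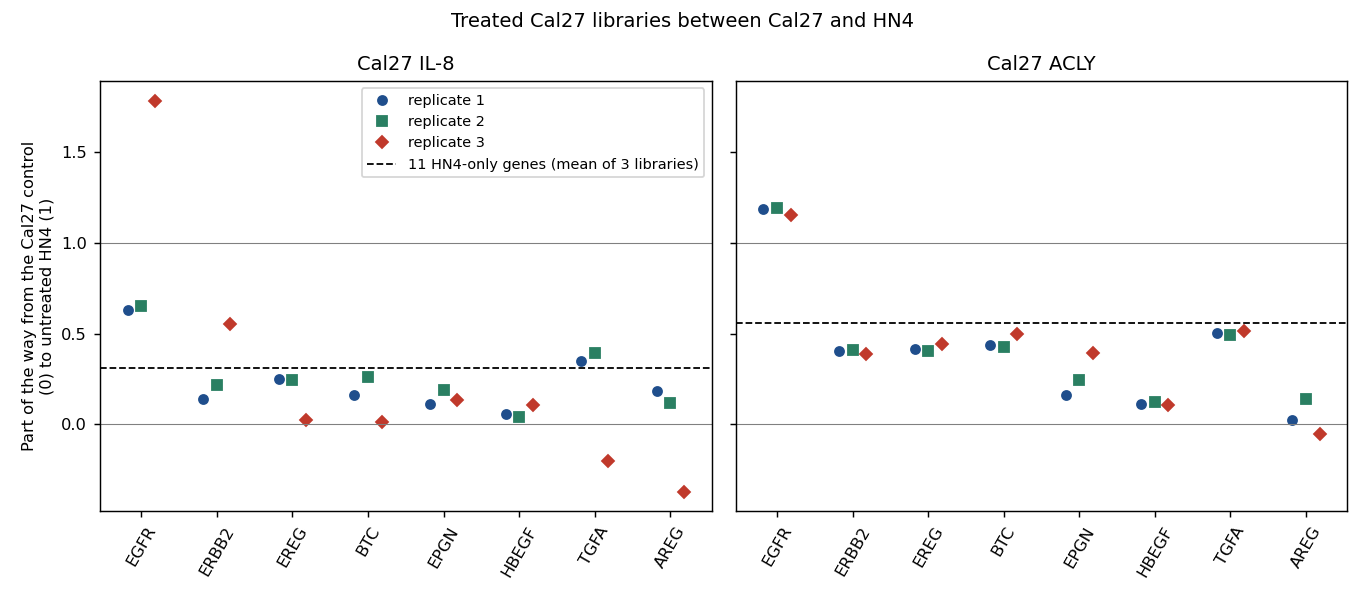
Position of each treated Cal27 library (symbols for replicates 1, 2 and 3) between its Cal27 control at 0 and untreated HN4 at 1, for 8 genes, with the mean over 3 libraries of the median ratio of the 11 HN4-only genes as a dashed line. In Cal27 with IL-8, EGFR of replicate 3 lay at 1.79. In Cal27 with ACLY, ERBB2, EREG, BTC and TGFA lay at 0.389 to 0.515 and EGFR above 1. ERBB3 is not drawn. In replicates 1, 2 and 3 it lay at -0.443, -0.515 and -0.43 with ACLY and at -0.547, -0.395 and 1.79 with IL-8.

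The response to the ACLY plasmid differed between Cal27 and HN6 in 7 of 9 members, against 61.9% of all genes tested. TGFA moved in opposite directions, up in Cal27 and down in HN6, with a difference of responses of 1.15 on the log2 scale (SE 0.08, edgeR adjusted p = 1.35e-14). ERBB3 rose in HN6 and was not higher in Cal27 (-0.91, SE 0.09, edgeR adjusted p = 7.92e-11). EREG rose in both and more in Cal27 (1.79, SE 0.08, edgeR adjusted p = 1.2e-19), and EGFR fell in both and more in Cal27 (-0.75, SE 0.07, edgeR adjusted p = 1.7e-11). The responses also differed for AREG (-0.35, SE 0.11, edgeR adjusted p = 0.00666), BTC (1.26, SE 0.33, edgeR adjusted p = 0.00131) and EPGN (1.62, SE 0.65, edgeR adjusted p = 0.0319). The EPGN call was lost without HN6 vector replicate 3 (1.09), HN6 ACLY replicate 3 (1.48), Cal27 vector replicate 1 (1.26) or 2 (1.59) or Cal27 ACLY replicate 3 (1.32), and with library-size (1.48) or upper-quartile scaling (1.41). HBEGF differed by -0.08 (SE 0.08, edgeR adjusted p = 0.4355) and ERBB2 by -0.09 (SE 0.08, edgeR adjusted p = 0.354). Both were called with library-size scaling (HBEGF -0.22, ERBB2 -0.23), upper-quartile scaling (HBEGF -0.29, ERBB2 -0.31) and a minimum mean of 5 CPM (HBEGF -0.25, ERBB2 -0.27). The median over all genes also moved, to -0.13 with library-size and -0.21 with upper-quartile scaling, against 0.007 in the main fit. With the minimum mean of 5 CPM that median was 0.03.

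In HN4, libraries labelled ACLY, which held less ACLY than those labelled vector, had 7 of 9 members called, 6 higher and 1 lower, where 38.1% of all genes tested were called by edgeR (18.9% higher, 19.1% lower). Groups did not overlap in 8 members, beside 44.6% of all genes. The median of the members was 0.41, against 0.01 for all genes. HBEGF had 350.8, 333.8 and 378.5 CPM in libraries labelled ACLY, against 116.4, 114.8 and 109.3 in those labelled vector, a 3.14-fold difference (log2 1.65, SE 0.05, edgeR adjusted p = 8.43e-23). EGFR had 1124, 1168 and 980.7 CPM in libraries labelled ACLY, against 775.3, 748.6 and 799.8 in those labelled vector (0.50, SE 0.05, edgeR adjusted p = 5.03e-10). EREG was lower, with 666, 656.2 and 645.6 CPM in libraries labelled ACLY, against 832.5, 815.2 and 826.3 in those labelled vector (-0.32, SE 0.05, edgeR adjusted p = 1.32e-06), a call lost with all 36 libraries in 1 fit (-0.33, edgeR adjusted p = 0.1885). None of the 3 genes overlapped between the groups. Read by measured ACLY, EGFR was lower and EREG higher in the Cal27, HN6 and HN4 plasmid groups with more ACLY. The other members did not keep the same direction in all 3 lines, and HBEGF was higher in Cal27 and HN6 and lower in HN4. The HN6 call of EGFR was lost with all 36 libraries in 1 fit (edgeR adjusted p = 0.261). Cal27 libraries with ACLY also held HN4-only transcripts. The part of ACLY in these directions was not tested.

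AREG was higher at 59.45 ± 4.24 CPM in HN4 labelled ACLY, against 43.4 ± 1.74 in HN4 labelled vector (0.46, edgeR adjusted p = 1.21e-05). ERBB2 was higher at 155 ± 14.8 CPM, against 117.3 ± 3.9 in HN4 labelled vector (0.41, edgeR adjusted p = 7.5e-07), and TGFA at 153.8 ± 5.68, against 120.3 ± 4.35 in HN4 labelled vector (0.36, edgeR adjusted p = 2.89e-06; SD, n = 3 each). EPGN was higher at 5.26 ± 1.1 CPM, against 3.03 ± 0.691 in HN4 labelled vector (0.79, edgeR adjusted p = 0.0125), a call lost without HN4 labelled vector replicate 1 (0.64) or HN4 labelled ACLY replicate 2 (0.63). ERBB3 (-0.04, edgeR adjusted p = 0.664) and BTC (edgeR adjusted p = 0.132) did not pass. Without HN4 labelled ACLY replicate 3, the library with few mitochondrial counts, 7 members were called as well, beside 7190 of 19208 genes tested.

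In HN4, HBEGF fell to 139.3, 139.9 and 132.8 CPM with IL-8, against 245.3, 249.9 and 237.8 in untreated cells, 1.78-fold lower (log2 difference -0.83, SE 0.07, edgeR adjusted p = 2.17e-06). It was the 1 of 9 members called, where 14% of all genes tested were called (6.89% higher, 7.09% lower). Groups did not overlap in 7 members, HBEGF among them, beside 44.7% of all genes. EREG had 781.1 ± 26.4 CPM with IL-8 and 594 ± 16.6 untreated (0.39, SE 0.23, edgeR adjusted p = 0.281). EGFR had 871.9 ± 20.3 CPM with IL-8 and 1085 ± 11 untreated (-0.32, SE 0.22, edgeR adjusted p = 0.378), and ERBB2 had 125.8 ± 2.57 with IL-8 and 151.6 ± 2.98 untreated (-0.27, SE 0.10, edgeR adjusted p = 0.0786; SD, n = 3 each). These 3 genes were among the 7 without overlap. The spread used for every IL-8 comparison was shared by all 18 libraries, Cal27 IL-8 replicate 3 among them. Without that library 4 members were called in HN4 (1 higher, 3 lower) and 30.3% of all genes, with EREG at 0.40 (edgeR adjusted p = 5.23e-07), EGFR at -0.31 (edgeR adjusted p = 1.54e-08), ERBB2 at -0.27 (edgeR adjusted p = 0.000129) and HBEGF at -0.83 (edgeR adjusted p = 3.17e-16).

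The HN4 libraries given IL-8 and the HN4 libraries labelled vector both held much ACLY, and few genes were called between them in the fit of 36 libraries. These groups come from different experiments, and 0.0879% of all genes tested in the fit of 36 libraries were called (0.0827% higher, 0.00517% lower). Of the 9 members 0 were called by edgeR, with 1 at an unadjusted p under 0.05 and 1 called by DESeq2, and 5 had groups that did not overlap, beside 15.6% of all genes. The member with that p was HBEGF, at 137.3 ± 3.95 CPM with IL-8 and 113.5 ± 3.72 in libraries labelled vector (0.28, SE 0.06, edgeR adjusted p = 0.0831; SD, n = 3 each). It was called at 0.28 without Cal27 IL-8 replicate 3 (edgeR adjusted p = 0.00116, with 0.311% of all genes called) or without HN4 labelled ACLY replicate 3 (edgeR adjusted p = 0.0435). With the libraries of the compared groups alone, 311 of 15297 genes tested were called. In that fit HBEGF was at 0.28 (edgeR adjusted p = 4.31e-06) and EGFR was called as well, at 0.17 (edgeR adjusted p = 0.000115).

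In HN6, IL-8 gave 0 of 9 members called by edgeR, where 15.4% of all genes tested were called (7.61% higher, 7.81% lower), with 1 member at an unadjusted p under 0.05 and 0 called by DESeq2. Values of 5 members did not overlap between groups, beside 44.5% of all genes. EREG had 12.2, 13.1 and 12.8 CPM with IL-8, against 16.7, 21.8 and 21.6 untreated, without overlap (-0.65, SE 0.26, edgeR adjusted p = 0.1006). EGFR had 8109 ± 148.8 CPM with IL-8 and 9542 ± 358.2 untreated (-0.22, SE 0.22, edgeR adjusted p = 0.539; SD, n = 3 each). Without Cal27 IL-8 replicate 3, 4 members were called in HN6 (2 higher, 2 lower) and 32.7% of all genes, with EREG at -0.65 (edgeR adjusted p = 4.51e-07), EGFR at -0.22 (edgeR adjusted p = 5.23e-06), ERBB3 at 0.26 (edgeR adjusted p = 0.000328) and ERBB2 at 0.21 (edgeR adjusted p = 0.00296).

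In Cal27, IL-8 gave 6 of 9 members called, 5 higher and 1 lower, where 39.4% of all genes tested were called by edgeR (22.7% higher, 16.7% lower). Groups did not overlap in 5 members, beside 43.3% of all genes. EREG had 189.2, 186.2 and 67.5 CPM with IL-8, against 48.7, 57.05 and 57.2 untreated (log2 difference 1.42, SE 0.24, edgeR adjusted p = 0.000159). EGFR had 1361, 1343 and 501 CPM with IL-8, against 1718, 1900 and 1867 untreated (-0.79, SE 0.22, edgeR adjusted p = 0.00804). Replicate 3 lay just above the untreated range in EREG and far below its partners in EGFR. Without it, EREG was at 1.77 (3.41-fold, edgeR adjusted p = 8.77e-21) and EGFR at -0.46 (0.729-fold, edgeR adjusted p = 1.26e-11). EPGN had 44 counts over 3 libraries with IL-8 and 18 untreated (1.37, edgeR adjusted p = 0.012). ERBB2 (0.36, edgeR adjusted p = 0.00822) and HBEGF (0.28, edgeR adjusted p = 0.00757) were also higher with IL-8, and stood at 0.21 and 0.19 without replicate 3. The fit of the 6 Cal27 libraries alone lost EGFR (edgeR adjusted p = 0.15), ERBB2 (edgeR adjusted p = 0.142), HBEGF (edgeR adjusted p = 0.1555) and BTC (edgeR adjusted p = 0.136).

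BTC, called at 0.59 with overlapping groups (edgeR adjusted p = 0.0311), was no longer called without Cal27 untreated replicate 1 (0.48) or 3 (0.58), without Cal27 IL-8 replicate 1 (0.57) or 2 (0.39), or with library-size (0.54) or upper-quartile scaling (0.52). Without Cal27 IL-8 replicate 3 it stood at 0.79 (edgeR adjusted p = 0.00021). Leaving out that replicate also called TGFA at 0.35 (edgeR adjusted p = 2.1e-06) and ERBB3 at -0.19 (edgeR adjusted p = 0.0278), where ERBB3 was at 0.08 with it (edgeR adjusted p = 0.654). That made 8 of 9 members, 6 higher and 2 lower, with 41.7% of all genes called. On the scale from untreated Cal27 to untreated HN4, replicates 1, 2 and 3 of Cal27 with IL-8 had EREG at 0.25, 0.244 and 0.0244 and EGFR at 0.628, 0.653 and 1.79. The HN4-only genes had median ratios of 0.292, 0.302 and 0.332 in these libraries, and their part in the EREG and EGFR values was not tested. KRT14, at 0 CPM in untreated HN4, was at 621.2, 607.1 and 1435 CPM in the same replicates, against 1016 ± 83.1 untreated.

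**Figure D5:**
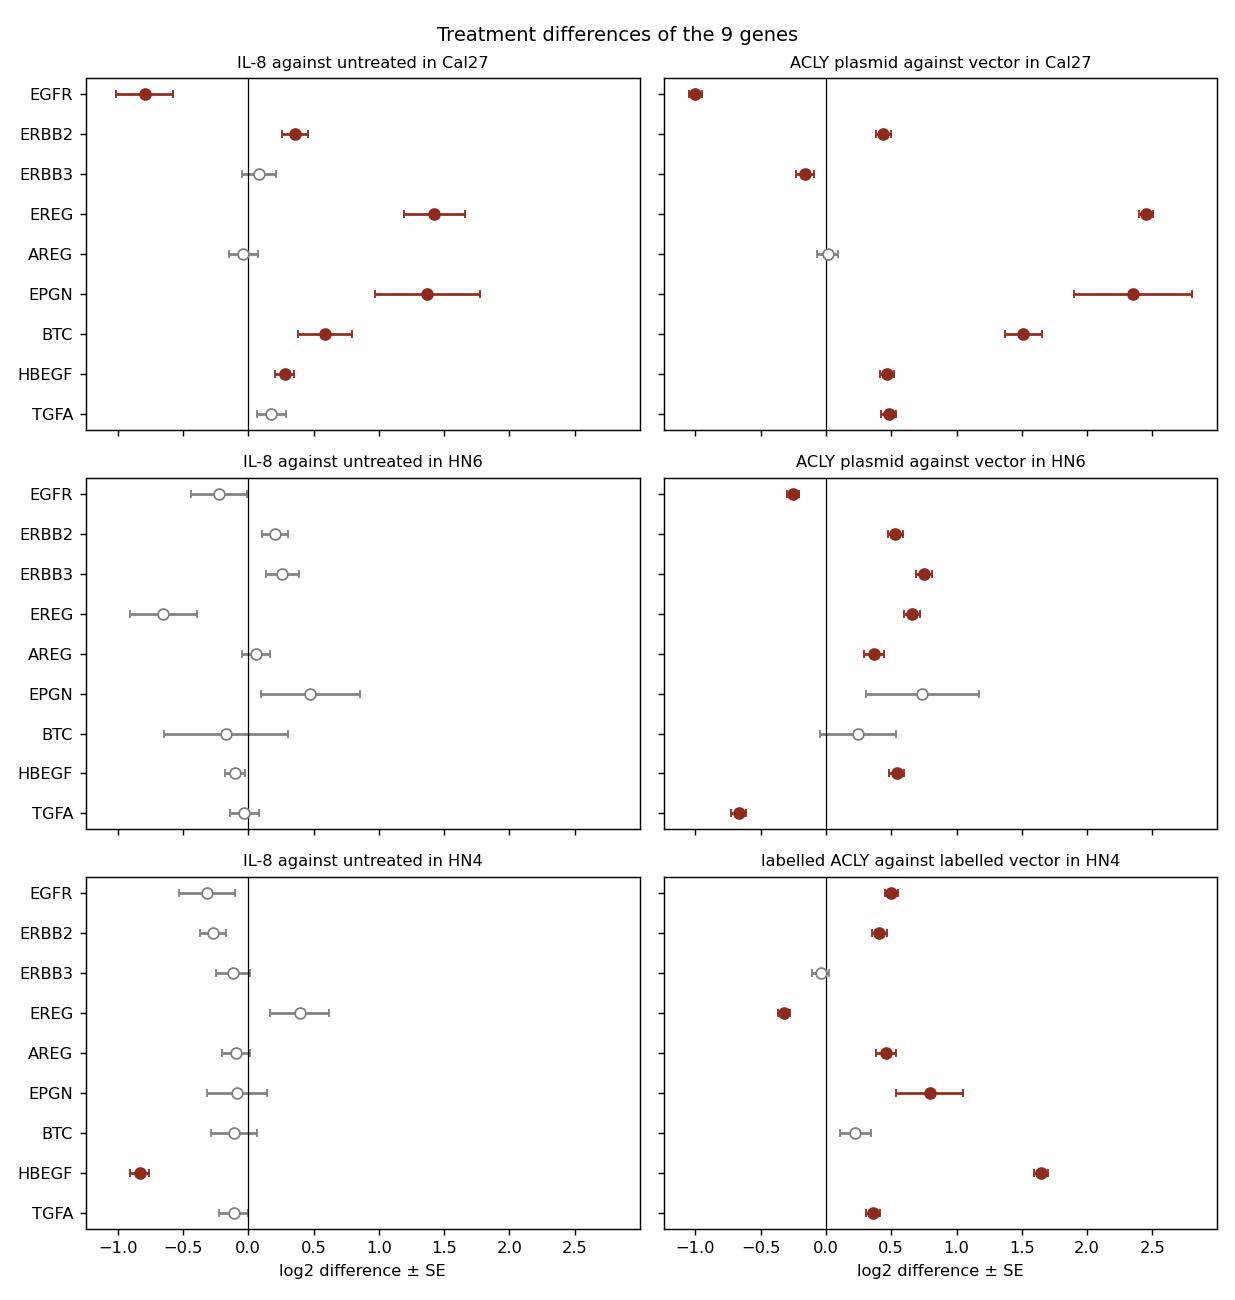
log2 difference with its SE (horizontal axis) for the 9 genes in the 6 treatment comparisons, with filled points for an edgeR adjusted p under 0.05 and open points otherwise. EREG reached 2.45 in Cal27 with the ACLY plasmid, HBEGF reached 1.65 in HN4 libraries labelled ACLY and -0.83 in HN4 with IL-8, and 0 members were filled in HN6 with IL-8.

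The response to IL-8 differed among the 3 lines in 4 of 9 members, against 40.2% of all genes tested. They were HBEGF (edgeR adjusted p = 1.14e-06), which rose in Cal27 and fell in HN4, EREG (edgeR adjusted p = 0.000598), ERBB2 (edgeR adjusted p = 0.00415) and EPGN (edgeR adjusted p = 0.0465). The Cal27 libraries with IL-8 also held HN4-only transcripts, at median ratios of 0.292, 0.302 and 0.332, whose part was not tested. In the fit of Cal27 libraries alone, IL-8 against untreated was not called for HBEGF (edgeR adjusted p = 0.1555) or ERBB2 (edgeR adjusted p = 0.142). The EPGN call was lost without any 1 untreated Cal27 or untreated HN4 library, and without Cal27 IL-8 replicate 2, HN6 untreated replicate 1 or 3, HN6 IL-8 replicate 3 or HN4 IL-8 replicate 1 or 2, with edgeR adjusted p between 0.0512 and 0.106. It was also lost with no filter (edgeR adjusted p = 0.0521), DESeq2 size factors in edgeR (edgeR adjusted p = 0.053) and DESeq2 (DESeq2 adjusted p = 0.0532). Without Cal27 IL-8 replicate 3, 8 members were called, and 54.4% of all genes.

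Genes whose products shed or carry the ligands were read as a list of 11. Treated Cal27 libraries also held HN4-only transcripts, and their part in the Cal27 values of this and the following lists was not tested. With ACLY 4 rose and 6 fell in Cal27, where 34.2% of all genes were called higher and 29% lower, and 6 rose and 2 fell in HN6, where 26.8% of all genes were higher and 24.9% lower. In HN4 labelled ACLY 4 were higher and 1 lower than in HN4 labelled vector, with 18.9% and 19.1% of all genes. The median log2 differences of this list were -0.41 in Cal27, 0.38 in HN6 and -0.03 in HN4, beside 0.03, 0.04 and 0.01 for all genes tested. RHBDF2, an inactive rhomboid protein that carries ADAM17 to the cell surface, averaged 78.4 CPM in Cal27 with ACLY, against 119.6 with vector (-0.62), and 154 CPM in HN6 with ACLY, against 84.5 with vector (0.87). With IL-8, 2 were higher and 5 lower in Cal27 (22.7% and 16.7% of all genes), 3 higher and 1 lower in HN6 (7.61% and 7.81%), and 0 higher and 1 lower in HN4 (6.89% and 7.09%), where 4 had an unadjusted p under 0.05. ADAM17, the main sheddase of several ligands, had 117.9 CPM in HN6 with IL-8, against 93.1 untreated (0.35), and 67.96 in HN4 with IL-8, against 79.8 untreated (-0.23).

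Of 16 genes that restrain or degrade the receptors, 5 rose and 6 fell with ACLY in Cal27 (34.2% and 29% of all genes), 5 rose and 4 fell in HN6 (26.8% and 24.9%), and 5 were higher and 3 lower in HN4 labelled ACLY than in HN4 labelled vector (18.9% and 19.1%). In Cal27 and HN6 these counts lie near the shares of all genes and show nothing about the list. In HN4 the 3 lower of 16 lie near their share as well, and the 5 higher exceed theirs by few genes. No result about the list is read from the HN4 counts either. Their medians were -0.01 in Cal27, 0.00 in HN6 and 0.09 in HN4. CBLB, a ubiquitin ligase that acts on activated receptors, had 4.5 CPM in Cal27 with ACLY, against 14.7 with vector (-1.71). In untreated HN4 it had 6.165 CPM, and the part of HN4 transcripts in the Cal27 value was not tested. In HN6 CBLB had 12.3 CPM with ACLY, against 6.52 with vector (0.92). ERRFI1, an inhibitor of the EGFR kinase, averaged 189.3 CPM in HN6 with ACLY, against 105.6 with vector (0.84). With IL-8 the list had 4 higher and 4 lower in Cal27 (22.7% and 16.7% of all genes) and 3 higher and 1 lower in HN6 (7.61% and 7.81%), and in HN4 0 were called by edgeR, with 4 at an unadjusted p under 0.05.

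Of 28 adaptors and enzymes at the receptor, 13 rose and 8 fell with ACLY in Cal27 (34.2% and 29% of all genes), 9 rose and 10 fell in HN6 (26.8% and 24.9%), and 5 were higher and 8 lower in HN4 labelled ACLY than in HN4 labelled vector (18.9% and 19.1%). Their medians were 0.07 in Cal27, -0.02 in HN6 and -0.06 in HN4. With IL-8, 8 were higher and 5 lower in Cal27 (22.7% and 16.7% of all genes), 4 higher and 3 lower in HN6 (7.61% and 7.81%) and 2 higher and 1 lower in HN4 (6.89% and 7.09%). GRB7, an adaptor encoded beside ERBB2, had 85.8 CPM in HN6 with ACLY, against 51.8 with vector (0.73), and 33.9 in HN4 with IL-8, against 56.9 untreated (-0.74). Of 4 tested genes among the other receptors and ligands, NRG1 fell to 146 ± 3.63 CPM in Cal27 with ACLY, against 197.5 ± 3.07 with vector (-0.45), and to 11.3 ± 1.34 in HN6 with ACLY, against 32.6 ± 1.78 with vector (-1.52; SD, n = 3 each). The part of HN4 transcripts in the Cal27 value of NRG1 was not tested.

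Genes beside the ligand cluster on chromosome 4 were read for comparison, and 8 were tested, the 6 chemokines CXCL8, CXCL6, CXCL1, CXCL5, CXCL3 and CXCL2, of which CXCL8 lies 564.8 kb before EPGN, together with MTHFD2L and PARM1, which are not chemokines. Of these 8, 7 rose and 1 fell with ACLY in Cal27 (34.2% and 29% of all genes), 6 rose and 1 fell in HN6 (26.8% and 24.9%), and 4 were higher and 0 lower in HN4 labelled ACLY than in HN4 labelled vector (18.9% and 19.1%). With IL-8, 3 were higher and 1 lower in Cal27 (22.7% and 16.7% of all genes), 0 higher and 4 lower in HN6 (7.61% and 7.81%), and 1 higher and 4 lower in HN4 (6.89% and 7.09%). CXCL8, which encodes IL-8, had 194.7 CPM in HN4 with IL-8, against 425.6 untreated (-1.13). It had 489.1 in HN4 labelled ACLY, against 145.4 in HN4 labelled vector (1.76), and HBEGF took the same direction in both HN4 comparisons. In Cal27, CXCL8 had 327.5 CPM with ACLY, against 377.2 with vector, and 386.9 with IL-8, against 439.1 untreated, whereas HBEGF was higher with either treatment. In HN6, CXCL8 had 463.9 CPM with ACLY, against 192 with vector, and HBEGF rose as well. With IL-8 in HN6, CXCL8 had 72.4 CPM, against 186.4 untreated, and HBEGF was not called. CXCL5 had 19.95 ± 1.76 CPM in Cal27 with ACLY, against 0 with vector, beside 55.1 ± 1.89 in untreated HN4 (SD, n = 3 each).

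Over the 12 group means of log2(CPM + 1), which share lines and control groups, EREG and BTC followed each other closely (Pearson r = 0.98), as did HBEGF and EPGN (0.94), while EGFR ran against BTC (-0.95) and EREG (-0.91) and with ERBB3 (0.85). AREG and EREG, neighbours in the genome, had r = 0.00166. Among 3473 protein-coding genes compared, the 3 most like EGFR were HOXD10, SCIN and NEK9 (0.991 to 0.992), and the 3 most like EREG were GULP1, FCGBP and WNT9A (0.992 to 0.9955). Those most like HBEGF were TRIM4, TGFB1I1 and IRAK2 (0.972 to 0.981), and those most like BTC were CLMP, TMED4 and SCRN1 (0.994 to 0.997). ERBB3 was most like COL9A2, CLIC3 and COL5A1 (0.971 to 0.990), ERBB2 like CATSPER1, CRELD1 and ADAM8 (0.970 to 0.985), and EPGN like APLP2, NAMPT and TSNARE1 (0.982 to 0.984). AREG was most like FAM84B, LRP10 and RAB43 (0.945 to 0.949) and TGFA like RAP1GAP2, BTBD11 and KDELC2 (0.921 to 0.959). The points are 3 lines in 4 conditions, so that differences between lines enter these values together with differences within a line. Within HN4, HBEGF ran from 113.5 CPM in libraries labelled vector to 354.4 in those labelled ACLY. Within HN6, TGFA had 78.6 CPM with ACLY and 125.3 with vector. The treated Cal27 groups, which held HN4-only transcripts, are among the 12 points.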

How the data were processed

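RNA-seq was measured in 36 libraries. TRIzol extraction, poly-A selection and random-hexamer priming are stated in the labels' protocols. The build hg38 and, with no roles given, DESeq2, featureCounts 1.5.0-p3, HISAT2 2.0.5 and CASAVA are named in the submitters' processing notes. Deposited values were raw counts of each gene, whole numbers without normalization, and the coordinates of all 58735 matched GENCODE 29. How reads that match several places were counted was not given in the sources used here.

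The counts of each experiment (18 libraries) were fitted in R 4.3.3 by the robust quasi-likelihood method of edgeR 4.0.16 (with limma 3.58.1), after filterByExpr on the groups (minimum count 10, minimum total 15) and TMM scaling, with 1 mean per group, leaving 18398 genes in the IL-8 experiment, 18556 in the plasmid experiment and 19349 in a fit of all 36 libraries, with 12 residual degrees of freedom per experiment. All tests took both sides, and p-values were adjusted by Benjamini-Hochberg over all genes tested, with a threshold of 0.05. A difference of responses was tested by interaction terms. CPM used TMM factors over 36 libraries, and TPM the deposited gene lengths. The scripts were tested on simulated data. Counts of all 36 replicate pairs differed beyond sampling noise. The floor of 3 counts covers counting error only.

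The members and lists were chosen with earlier results of these data known. Named genes are the 9 members, ACLY, up to 4 called genes of a list with the largest absolute change, and the 3 genes most alike each member (mean of at least 2 and SD of at least 0.5 in log2(CPM + 1)), with line-only genes and neighbours beside them. Alternatives were other scalings and filters, DESeq2 1.42.0, other sets of libraries, a 2-fold minimum, the replicate block and leaving out 1 library at a time. The libraries left out were those of the compared groups. Cal27 IL-8 replicate 3 and HN4 labelled ACLY replicate 3 were also left out in every comparison whose fit held them.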

Additional observations from a re-analysis of the deposited data

Results flagged for a closer look

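Each of these results stands here because the response of a gene differed between lines by a test of the difference itself, with edgeR adjusted p over all genes. The response to the ACLY plasmid differed between Cal27 and HN6 for EREG (adjusted p = 1.195e-19), TGFA (1.345e-14), EGFR (1.703e-11), ERBB3 (7.921e-11), BTC (0.001308), AREG (0.00666) and EPGN (0.03192). All of them rest on Cal27 libraries that also held HN4-only transcripts, whose part was not tested. The response to IL-8 differed among Cal27, HN6 and HN4 for HBEGF (adjusted p = 1.143e-06), EREG (0.0005976), ERBB2 (0.004151) and EPGN (0.04651). These rest in part on Cal27 libraries that held HN4-only transcripts as well, whose part was not tested. Both EPGN calls were lost in several other settings. In the IL-8 test HBEGF was 68.5 ± 6.45 CPM in Cal27 with IL-8, against 56.03 ± 2.18 untreated, and 137.3 ± 3.95 CPM in HN4 with IL-8, against 244.3 ± 6.12 untreated (SD, n = 3 each).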

How the results depend on the processing

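The number of members called moved by over 1.5 times in these settings, and the cause was not tested except where fewer libraries or a size minimum make it. For IL-8 in HN4 (1 called) it was 2 with library-size scaling, upper-quartile scaling, a mean of at least 5 CPM, DESeq2 or all 36 libraries in 1 fit, 3 with no filter, 5 with the compared groups alone and 0 with a 2-fold minimum. Over all genes, the main fit called 2572 of 18398. In the order above the other settings called 2378 and 2511 of 18398, 2035 of 11424, 2981 of 18396 and 3378 of 19349. No filter called 2277 of 38042, the compared groups alone 6551 of 15672 and a 2-fold minimum 417 of 18398. For IL-8 in HN6 (0 called) it was 2 with no filter, 4 with the compared groups alone and 1 with all 36 libraries, and for IL-8 in Cal27 (6 called) 2 with the compared groups alone and 2 with a 2-fold minimum. Over all genes these were 2726 of 38042, 6025 of 15629 and 3830 of 19349 in HN6 (main fit 2837 of 18398). In Cal27 they were 2588 of 16611 and 1819 of 18398 (main fit 7247 of 18398). With the compared groups alone, the counts of members and of all genes thus moved in the same directions. A 2-fold minimum left 4 of 8 members in Cal27 and 0 of 7 in HN6 with the ACLY plasmid, 1 of 7 in HN4 labelled ACLY against HN4 labelled vector, 4 of 8 in untreated Cal27 against HN4, and 3 of 8 in Cal27 against HN6, untreated or vector. Over all genes called, that minimum left 4264 of 11734, 2340 of 9583 and 1271 of 7062 in the 3 plasmid comparisons. It left 5999 of 11700 in untreated Cal27 against HN4. In Cal27 against HN6 it left 6603 of 12583 untreated and 6629 of 13601 with vector. HN4 with IL-8 against HN4 labelled vector (0 called) gave 1 with a mean of at least 5 CPM, 1 with DESeq2 and 2 with the compared groups alone. Over all genes these were 18 of 11437, 27 of 19348 and 311 of 15297 (main fit 17 of 19349).

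Leaving out 1 library at a time, by the rule given above, gave 5 to 8 members called for IL-8 in Cal27, 0 to 4 in HN6 and 1 to 4 in HN4. Over all genes it called 5486 to 7884, 1742 to 6194 and 1401 to 5738 in these comparisons. It gave 7 to 8 members for the plasmid in Cal27, 7 to 8 in HN6 and 6 to 7 in HN4. Over all genes it called 10896 to 12399, 8733 to 10270 and 6083 to 7190 there. Between untreated lines it gave 8 to 9 members for Cal27 against HN4, 7 to 8 for HN6 against HN4 and 7 to 8 for Cal27 against HN6, and 8 to 9 for vector Cal27 against HN6. Over all genes it called 10892 to 13596, 11644 to 13962, 11926 to 14251 and 13166 to 14280 in the same order. HN4 with IL-8 against HN4 labelled vector gave 0 to 1, the difference of IL-8 responses 3 to 8 and that of ACLY responses 6 to 7. Over all genes these called 9 to 62, 6362 to 10295 and 11019 to 12035. The fits with 1 library left out tested 18850 to 19935 genes. The 1 reversal was ERBB3 with IL-8 in Cal27, at -0.19 without Cal27 IL-8 replicate 3, against up to 0.213 without another single library.

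Replicate numbers shared between groups did not pair most of the samples: 2 of 18 pairs had a correlation of deviations over 0.1 (range -0.422 to 0.39), and 5 samples correlated best with their own number. Among those 5 were replicates 1, 2 and 3 of HN6 with ACLY, at correlations of 0.067, 0.0761 and 0.0287. With the replicate block the counts of members called were unchanged, at 6, 0 and 1 for IL-8 in Cal27, HN6 and HN4, 8, 7 and 7 for the plasmid, 8, 7, 8 and 8 between lines, 0 for HN4 with IL-8 against HN4 labelled vector, and 4 and 7 for the differences of responses. Of 1749 values of single members under all alternatives, 1663 kept their direction and side of the threshold, 38 were no longer called and 47 became called. EPGN and BTC rest on few counts in HN6, and EPGN in Cal27, where smaller differences were not detectable at this depth.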
